A study of Mus musculus with 2 samples.

Results

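The genes for the Eya and Dach cofactors, which act with transcription factors of the Six2 family, were examined in a chromatin immunoprecipitation experiment on Hdac1 and Hdac2, a pair of histone deacetylases found in corepressor complexes. The 5 genes were chosen by name: Eya1, Eya2, Eya3, Eya4 and Dach1, out of 21887 protein-coding genes tested. Each lies on its own chromosome, so no member shares an island with another. Nephron progenitor cells, the source of nephron epithelium, had been taken from E16.5 kidneys of wild-type mouse embryos and cultured before crosslinking. One library was made with an antibody against Hdac1 and one with an antibody against Hdac2. By the labels on the files, 0.5 µg was used of the Hdac1 antibody and 1 µg of the Hdac2 antibody, and the effects of antibody and amount cannot be told apart. Both groups had the same wild-type genotype, and the labels name no treatment. Expression was not measured, so the identity of the cells could not be checked against their marker genes.

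The deposited files list islands, stretches of the mm10 genome that the authors' caller found enriched in reads over a background. An island has a position, a width and 1 value of the authors, a p-value or q-value, of which nothing states which it is. The Hdac1 list held 30182 islands with a median width of 2.0 kb, and the Hdac2 list held 20307 with a median of 2.8 kb. Values depend on depth and background and are used here only to rank islands within their own list, the lowest being the strongest. There was no replicate of either antibody, so there is no spread between replicates, no test is given, and differences are between these 2 libraries only. The read depth is unknown, and a gene without an island is one at which none was called.

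Eya proteins do not bind DNA themselves. They are brought to their targets by DNA-binding partners such as Six2, act there as coactivators, and also carry a protein phosphatase activity in the conserved Eya domain. Dach proteins belong to the Ski family, bind chromatin and act mostly as corepressors, and these genes and those of their Pax and Six2-related partners are known as one regulatory network from the fly eye to vertebrate organs. In the kidney Eya1 acts with Six2 in the nephrogenic mesenchyme, and mice without Eya1 form no kidneys.

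Hdac1 islands lay within 1 kb of a gene end at all 5 genes, and Hdac2 islands at 4 of the 5. Over all protein-coding genes the shares were 60.7% for Hdac1 and 31.7% for Hdac2, and 30.7% had both. The gene with Hdac1 alone was Eya3. With only the stronger 50% of each list, Hdac2 islands were left at the ends of 2 genes, Eya4 and Dach1, and not at those of Eya1 and Eya2. Over all genes with an Hdac2 end island the median rank of the strongest was 50.2% of the list. The same filter thus takes the Hdac2 end island from about 50% of such genes, and the loss at the members is near that background. A gene end is the first or last base of the annotated gene, since the gene table gives no strand. Every member had its Hdac1 island at 1 of its 2 ends and not at the other, as had 85.3% of all genes with an Hdac1 island at an end. The Hdac2 island lay at the same end in each of the 4 genes that had one.

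**Figure D1:**
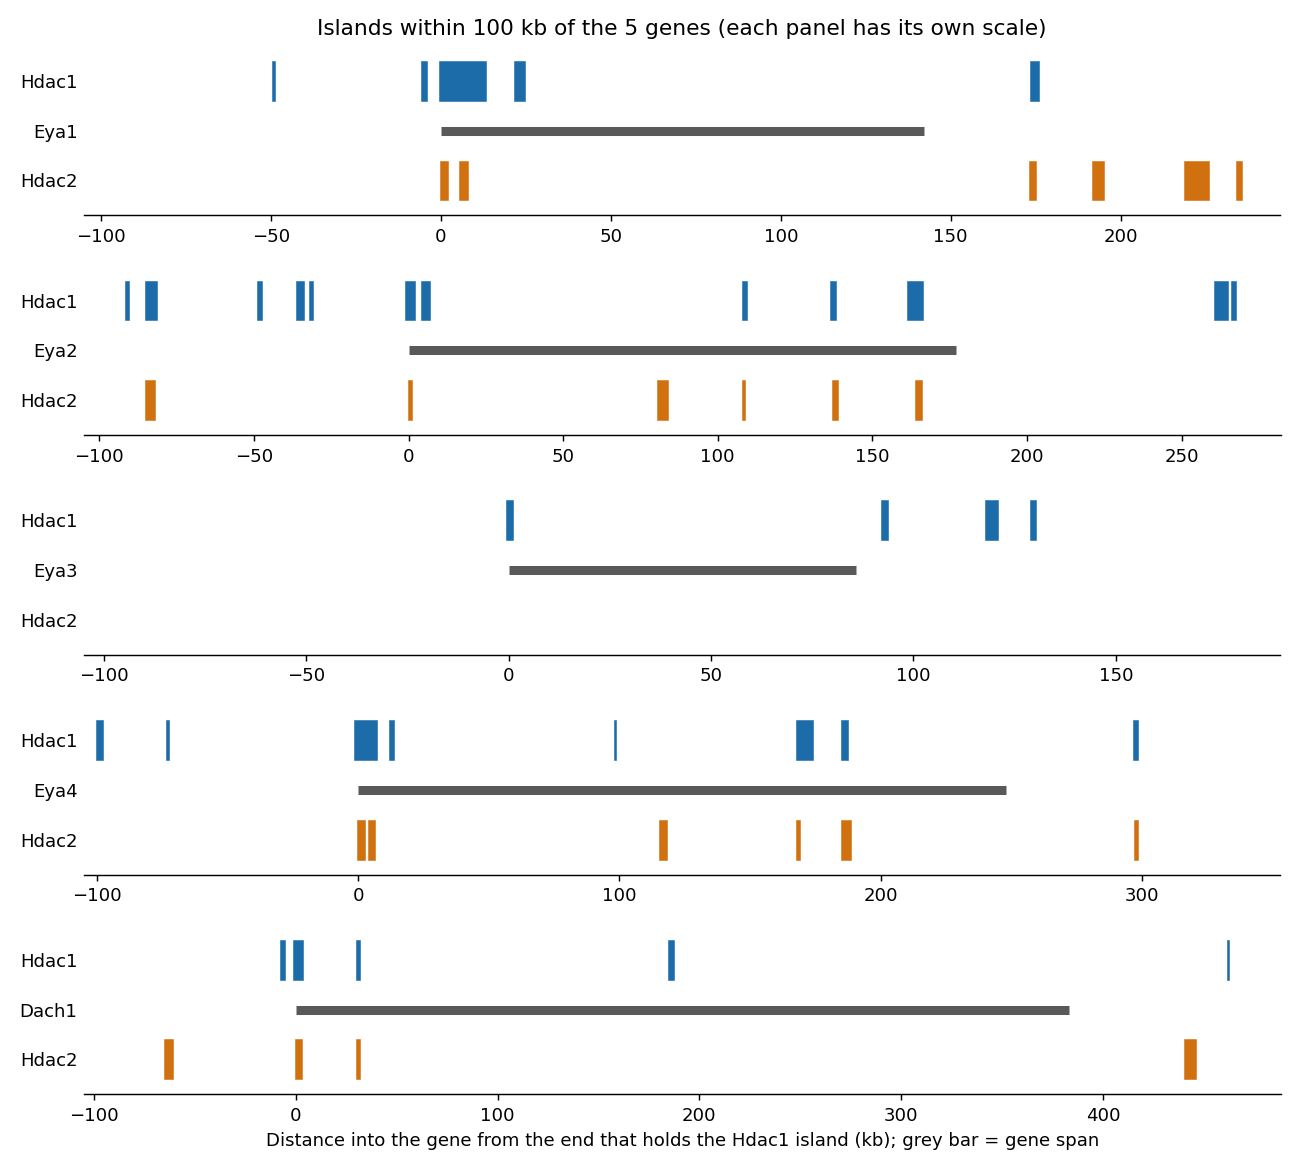
Islands of Hdac1 (blue, above) and Hdac2 (orange, below) at the 5 genes. The x axis is the distance in kb into the gene from the end that holds the Hdac1 island, the grey bar is the gene span, and each panel has its own scale. The widest island is that of Hdac1 at the end of Eya1 (13.8 kb), and the Hdac2 row of Eya3 is empty.

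Eya1, the member needed for kidney formation, had the widest and strongest Hdac1 island of the group. The gene spans 14168953 to 14311035 on chromosome 1 (142 kb), and the island of 13.8 kb ran from 14297801 to 14311600, over its upper end. It was among the 82 Hdac1 islands listed at 0, the lowest value in the files, and was the 72nd widest among the 13286 genes with an Hdac1 island at an end.

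Hdac2 did not follow this outline at Eya1. Under the Hdac1 island lay 2 separate Hdac2 islands of 2.6 kb each, 3.2 kb apart, which together covered 37.7% of it. The one at the gene end ran from 14308801 to 14311400 with a value of 3.86e-05, which placed it at 86.8% of the Hdac2 list counted from the strongest. The one farther inside the gene, from 14303001 to 14305600, had a value of 1.41e-15 and stood at 9.47% of the list. The stronger Hdac2 signal therefore lay inside the gene and not at its end.

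The rest of the Eya1 span was nearly free of islands. A weak Hdac1 island of 3.4 kb (4.47e-05) lay in the gene beyond the broad one, and the 117.2 kb from there to the lower end held no Hdac1 island. Hdac2 had no island over the lower 134 kb. Beyond that end the lists differed: within 100 kb there were 4 Hdac2 islands and 1 Hdac1 island, all inside the annotated long noncoding RNA gene Gm39596. The strongest of the 4 Hdac2 islands lay 76.6 kb from the gene and was 7.4 kb wide. It had a value of 4.74e-18, stood at 5.98% of its list and overlapped no Hdac1 island. An Hdac1 island of 2.4 kb (7.92e-14) at 31.4 kb was the only one in that flank, and it overlapped an Hdac2 island of 2.0 kb (0.000279).

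Eya4, a family member known from human hearing and heart disease, resembled Eya1 in its Hdac1 island and exceeded it in Hdac2 strength. The gene spans 23102962 to 23350838 on chromosome 10 (248 kb). An Hdac1 island of 8.8 kb from 23343601 to 23352400 covered the upper end with a value of 2.49e-241, at 0.6% of the list, the 179th widest among genes. The Hdac2 island there, of 3.0 kb from 23348401 to 23351400, had a value of 3.87e-34 and stood at 1.06% of its list.

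This was the strongest Hdac2 island of any member. As at Eya1, a second Hdac2 island lay under the same Hdac1 island, here 2.6 kb wide with a value of 1.01e-05 and separated from the first by 1.4 kb. The pair covered 63.6% of the Hdac1 island. At Eya4 the strong Hdac2 island was the one at the gene end, the reverse of Eya1. Over the whole list 0.732% of Hdac1 islands overlapped 2 or more Hdac2 islands, and among the 241 Hdac1 islands of at least 8 kb, a width that both genes passed and that was chosen after seeing them, the share was 35.3%.

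Eya4 also had islands far inside the gene and beyond its other end. At 167.6 kb from the upper end a 6.6 kb Hdac1 island (5.18e-34) overlapped a 1.4 kb Hdac2 island (3.3e-07). Next to it, a 3.0 kb Hdac1 island (0.000141) overlapped a 3.6 kb Hdac2 island (1.64e-07), at an end of the small nuclear RNA gene Gm24655. Outside the gene, at 48.8 kb from its lower end, an Hdac1 island (2.0 kb, 6.23e-21) and an Hdac2 island (1.6 kb, 2.18e-17) had edges within 200 bp of each other. That Hdac2 island stood at 6.74% of its list and was the second strongest of the gene.

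Eya2 had islands of modest strength at its end and the most islands around it. The gene spans 165595028 to 165771727 on chromosome 2 (177 kb), and both islands lay at its lower end. The Hdac1 island of 3.4 kb from 165593801 to 165597200 had a value of 6.67e-39, at 27.2% of the list. The Hdac2 island of 1.4 kb from 165594801 to 165596200 had a value of 3.51e-06, at 76.0% of its list.

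Some islands inside Eya2 were stronger than those at its end. The Hdac1 island of 5.2 kb from 165756201 to 165761400, near the other end of the gene, had a value of 1.76e-40 and overlapped an Hdac2 island of 2.2 kb with 5.11e-11. A pair in the middle of the gene began at the same base, 165703001, with 1.6 kb for Hdac1 (1.11e-30) and 0.8 kb for Hdac2 (9.1e-15). This pair held the strongest Hdac2 island of the gene, at 11.3% of the list, and at 0.8 kb it was also the narrowest of all member Hdac2 islands. A further pair lay beside Gm29993, a long noncoding RNA gene inside Eya2. The flanks of Eya2 held 7 Hdac1 islands and 1 Hdac2 island within 100 kb. The Hdac2 island (3.2 kb, 4e-11) and an Hdac1 island (4.0 kb, 3.7e-39) began at the same base inside the glucose transporter gene Slc2a10.

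Eya3, a more widely expressed family member, stood apart from the others by having no Hdac2 island. It spans 132639025 to 132724765 on chromosome 4 (85.7 kb). Its only Hdac1 island in or at the gene measured 1.6 kb, from 132638401 to 132640000, with a value of 3.24e-36 at 28.8% of the list. The other 84.77 kb of the gene held no Hdac1 island.

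The nearest Hdac2 island to Eya3 was 129 kb away, 1.4 kb wide, with a value of 4.01e-06. Among all genes with an Hdac1 island at an end, 7.17% had no Hdac2 island within 100 kb. The other 3 Hdac1 islands near Eya3 all lay at ends of neighbouring genes, namely Xkr8, Smpdl3b and Rpa2. The one at Rpa2, a subunit gene of the single-strand DNA-binding protein of replication, had a value of 2.97e-100 and was stronger than the island of Eya3 itself.

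Dach1, the only cofactor outside the Eya family, had islands at its upper end in both lists, each wider than the median end island of its list. The gene spans 97786846 to 98169765 on chromosome 14 (383 kb). The Hdac1 island of 4.8 kb from 98166201 to 98171000 had a value of 9.42e-140, at 3.15% of the list. The Hdac2 island of 3.6 kb from 98166601 to 98170200 had a value of 3.86e-13, at 16.4% of its list, and lay wholly within the Hdac1 island. The long noncoding RNA gene Gm33583 starts 139 bases beyond this end of Dach1, so the islands lie at an end of both genes.

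By share of the span, the body of Dach1 had the least under islands of the long members, in both lists. A pair of islands at 30.0 kb from the upper end had edges within 200 bp of each other, with 2.0 kb for Hdac1 (1.02e-13) and 1.8 kb for Hdac2 (2.98e-10). One further Hdac1 island (2.8 kb, 2.49e-08) lay near the middle. The lower 195.6 kb of the gene held no Hdac1 island and the lower 351.2 kb no Hdac2 island. Outside the gene, Hdac2 islands of 6.2 kb (2.57e-06) and 4.2 kb (1.4e-10) lay on opposite sides at 57.0 and 61.0 kb and had no Hdac1 island over them.

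**Figure D2:**
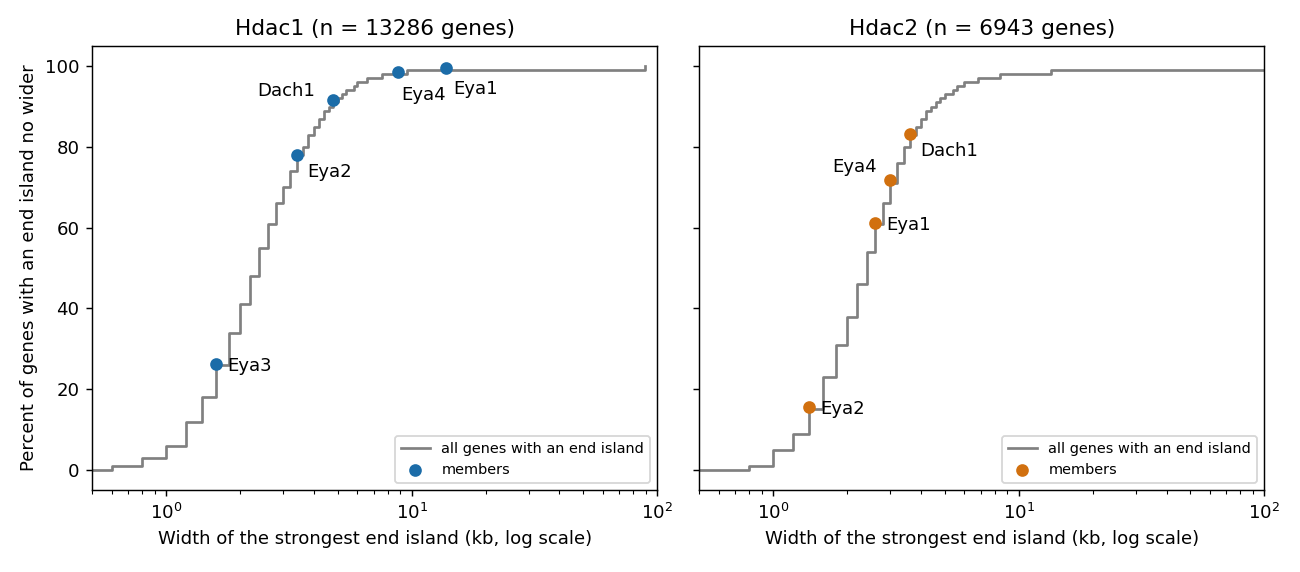
Width of the strongest island within 1 kb of a gene end (x axis, kb, log scale) against the percent of genes whose end island was no wider (y axis), for Hdac1 (left) and Hdac2 (right). Grey steps are all genes with such an island and dots are the members. For Hdac1, Eya1, Eya4 and Dach1 lie above 90% and Eya3 at the narrow side, and for Hdac2 none of the 4 members lies above Dach1.

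The order of the members was not the same for the 2 antibodies. By width of the end island the order for Hdac1 was Eya1 (13.8 kb), Eya4 (8.8 kb), Dach1 (4.8 kb), Eya2 (3.4 kb) and Eya3 (1.6 kb), and their values had the same order. For Hdac2 it was Dach1 (3.6 kb), Eya4 (3.0 kb), Eya1 (2.6 kb) and Eya2 (1.4 kb) by width. By value it was Eya4, Dach1, Eya2 and Eya1, the last at the weak end of the Hdac2 list. With island edges in steps of 200 bp and no replicate, whether neighbours in these orders differ cannot be said. The median end island of the members was 4.8 kb for Hdac1 and 2.8 kb for Hdac2, against 2.4 kb in each list over all genes with one.

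Promoter sequences show what lies under some of these islands. The RefSeq promoter table (GRCm38.p6, the assembly of mm10) held entries for 3 members, Eya3, Eya4 and Dach1, and not for Eya1 and Eya2. Each window runs from 250 bases before the annotated start to 50 after it, and capitals mark CpG dinucleotides. The windows are shown because all 3 lay wholly under an Hdac1 island, while Hdac2 covered those of Eya4 and Dach1 and left that of Eya3 free.
Eya3, chr4:132638796-132639095, plus strand: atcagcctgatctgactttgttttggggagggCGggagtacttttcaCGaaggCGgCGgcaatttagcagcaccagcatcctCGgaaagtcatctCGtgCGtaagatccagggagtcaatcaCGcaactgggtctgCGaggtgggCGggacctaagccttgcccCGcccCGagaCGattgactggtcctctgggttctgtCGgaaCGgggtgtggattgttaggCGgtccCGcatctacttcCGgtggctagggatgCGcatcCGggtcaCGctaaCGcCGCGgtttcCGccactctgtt
Eya4, chr10:23349894-23350193, minus strand: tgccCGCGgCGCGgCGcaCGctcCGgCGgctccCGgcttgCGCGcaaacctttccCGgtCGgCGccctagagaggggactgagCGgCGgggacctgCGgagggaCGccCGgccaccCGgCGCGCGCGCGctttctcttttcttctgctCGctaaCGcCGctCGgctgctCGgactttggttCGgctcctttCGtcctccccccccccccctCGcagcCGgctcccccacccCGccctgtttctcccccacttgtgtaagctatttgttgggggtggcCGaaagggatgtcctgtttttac
Dach1, chr14:98169716-98170015, minus strand: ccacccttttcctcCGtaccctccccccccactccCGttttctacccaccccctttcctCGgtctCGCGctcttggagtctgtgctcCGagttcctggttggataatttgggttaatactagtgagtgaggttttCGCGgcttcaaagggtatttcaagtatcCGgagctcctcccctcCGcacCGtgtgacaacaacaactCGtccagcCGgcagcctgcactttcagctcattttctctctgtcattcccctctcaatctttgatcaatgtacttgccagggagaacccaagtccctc

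These entries fix the direction of the 3 genes, and the islands at their ends were at the start. Of 17492 protein-coding genes with an entry, 61.4% had an Hdac1 island within 1 kb of a start and 31.7% an Hdac2 island. An Hdac1 island covered the whole window at 55.5% of 21263 entries, and an Hdac2 island at 28.2%. At Eya3 the Hdac1 island reached 645 bases upstream of the start and 954 bases downstream. At Eya4 it reached 2457 bases upstream and 6342 downstream, with Hdac2 at 1457 and 1542. At Dach1 the Hdac1 island reached 1235 bases upstream and 3564 downstream, and the Hdac2 island 435 and 3164. The Hdac1 islands of Eya4 and Dach1 thus extended mostly into the gene.

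The 3 windows differed in CpG content. Eya4 had 36 CpG dinucleotides and 69.3% G and C, and Eya3 had 25 and 59.3%. Dach1 had 13 and 54.0%. The median was 23 CpG over entries wholly under an Hdac1 island, 26 under islands of both libraries, 13 over all entries and 3 over entries without an island within 1 kb. Dach1 was therefore at the median of all promoters although islands of both libraries covered it. A second entry for Eya4, starting 53 bases farther into the gene, shared 247 bases with the first and had 28 CpG.

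Searched on both strands, the GC box GGGCGG matched 3 times in the Eya3 window. The leftmost bases of the matches lay 221, 108 and 87 bases before the start, and the last match was on the reverse strand. The GC box matched once in the Eya4 window shown, on the reverse strand with its leftmost base 20 bases before the start. It did not match in that of Dach1. It occurs in 46.2% of all entries and in 70.0% of those under an Hdac1 island. The ETS motif CCGGAAG matched once, in Eya3, on the reverse strand with its leftmost base 12 bases before the start. It occurs in 11.6% of all entries and in 18.4% of those under an Hdac1 island. The letters CCAAT (38.2% of entries), TATAAA (12.6%) and TCAGGTT, the core of a site bound by Six4 (3.85%), were in none of the windows. No matches overlapped. A match describes the letters only.

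Within the gene bodies the members of at least 100 kb, Eya1, Eya2, Eya4 and Dach1, all had islands of both libraries. Over all genes 65.5% had an Hdac1 island and 38.4% an Hdac2 island in the body, and over the 2429 genes of at least 100 kb the shares were 89.7% and 77.8%. The presence of a body island in these 4 genes is therefore near the background of long genes. Eya2 and Eya4 had 5 body islands in each list, counting the one at the end. Among long genes 21.7% had 5 or more for Hdac1 and 8.77% for Hdac2.

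Hdac1 islands covered 16.6 kb of Eya1 (11.7% of its span), 14.0 kb of Eya2 (7.91%), 19.8 kb of Eya4 (8.0%) and 8.37 kb of Dach1 (2.18%). The median over long genes was 3.45 kb and 1.89%. As large a share was covered in 3.95% of long genes for Eya1, 9.39% for Eya2, 9.06% for Eya4 and 44.3% for Dach1. Hdac2 islands covered 4.83 kb of Eya1 (3.4%), 9.37 kb of Eya2 (5.3%), 13.0 kb of Eya4 (5.26%) and 4.96 kb of Dach1 (1.3%), against a median of 3.0 kb and 1.41% over long genes. By share, Dach1 was below that median for Hdac2, and 53.4% of long genes had as large a share. The 3 long Eya genes had more of their span under Hdac1 than the median long gene, and Dach1 was close to the median for Hdac1. In Eya3, which is shorter, Hdac1 covered 0.976 kb.

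**Figure D3:**
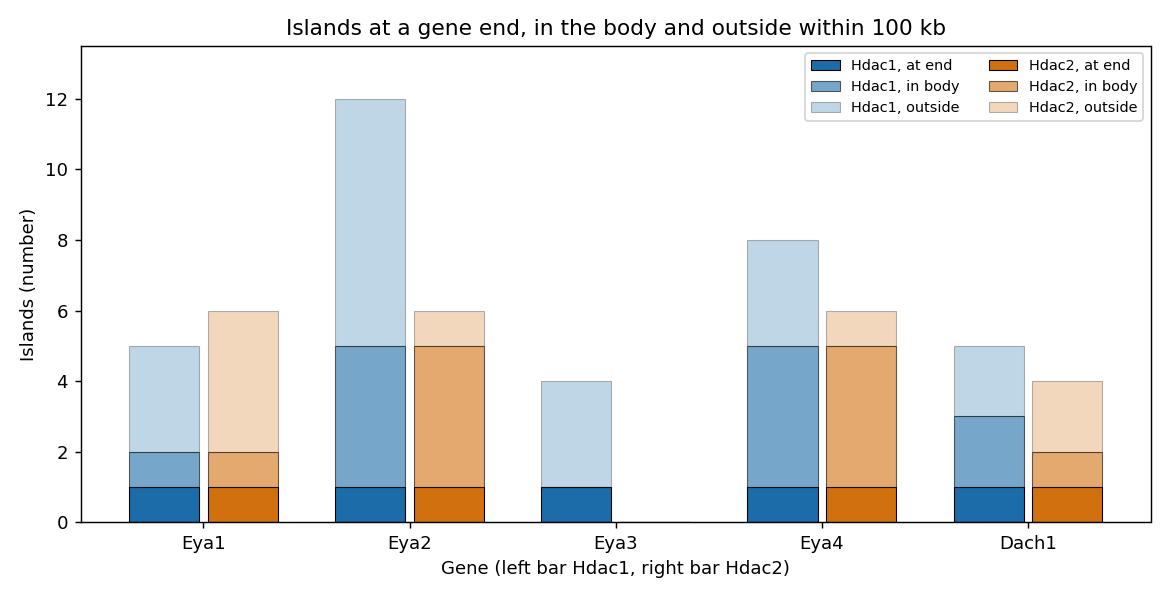
Number of islands (y axis) at each member (x axis), with the left bar for Hdac1 and the right for Hdac2. Shades mark islands at a gene end (darkest), elsewhere in the body, and outside the gene within 100 kb (lightest). Eya2 has the most Hdac1 islands (12), and Eya1 is the one member with more Hdac2 than Hdac1 islands (6 and 5).

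Within 100 kb of the 5 genes there were 34 Hdac1 islands and 22 Hdac2 islands. All 5 genes had an Hdac1 island in this range and 4 had an Hdac2 island, while over all genes 85.4% had Hdac1 and 85.5% had Hdac2, so these counts are near the background. The members had 5, 12, 4, 8 and 5 Hdac1 islands in the order Eya1 to Eya4 and Dach1, against a median of 5 over all genes (interquartile range 2 to 8). They had 6, 6, 0, 6 and 4 Hdac2 islands, against a median of 2 (1 to 4) over all genes and 3 (2 to 5) over long genes. The Hdac2 counts of Eya1, Eya2 and Eya4 lay above the upper quartile of both. Some of these islands lay at an end of another annotated gene, 7 of the 34 for Hdac1 and 3 of the 22 for Hdac2. Not in these counts are islands wholly inside another annotated gene. Those lay in Gm39596 and Slc2a10 for both libraries, and in Zmynd8 and Gm33583 for Hdac1. Close beyond the 1 kb window lay an Hdac2 island 3.84 kb inside the upper end of Eya4, and Hdac1 islands 3.97 kb outside the upper end of Eya1 and 3.97 kb inside the lower end of Eya2. Just inside the 100 kb range lay an Hdac1 island 97.8 kb from Eya4.

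Of the members' Hdac1 islands 13 of 34 (38.2%, 95% Wilson interval 23.9 to 55.0%) shared at least 1 bp with Hdac2, against 39.8% of the whole list. Of their Hdac2 islands 15 of 22 (68.2%, interval 47.3 to 83.6%) overlapped an Hdac1 island, against 59.4% of the whole list. Both intervals, which cover counting error only, include the share of the list. They treat islands as independent, although the islands cluster at 5 genes and overlapping islands enter both counts. A difference from the list was not tested. Overlap was found at 4 of 5 Hdac1 islands at ends, 6 of 11 elsewhere in the bodies and 3 of 18 outside. For Hdac2 the counts were 4 of 4 at ends, 8 of 10 in the bodies and 3 of 8 outside. Over the whole Hdac1 list overlap was found at 47.9% of islands at an end of a protein-coding gene, 32.8% inside genes only and 36.1% outside. Over the whole Hdac2 list it was found at 96.8%, 63.3% and 33.3%, so the members' Hdac2 counts follow the order of the list. The members' Hdac1 counts were lowest outside (3 of 18), and the share of the whole Hdac1 list was lowest inside genes only (32.8%). At each place the 95% Wilson interval of the members' Hdac1 count includes the share of the list. The shares of the whole lists place an island against any protein-coding gene, while the members' flanks also hold other genes. The places are therefore not the same, and no departure from the order of the Hdac1 list can be read from these counts.

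Overlapping islands rarely had the same outline. In 2 pairs, those outside Eya4 and inside Dach1, both edges were within 400 bp, which is 2 of 13 overlapping Hdac1 islands. Over all overlapping Hdac1 islands the share was 27.8%. Hdac1 islands with an Hdac2 island were wider and stronger than those without, with medians of 3.4 kb and 5.18e-34 against 1.8 kb and 1.8e-08. For Hdac2 the width went the other way, with a median of 2.2 kb for the 15 islands over Hdac1 and 3.6 kb for the 7 without it. The whole lists had the same pattern, with Hdac2 medians of 2.2 kb and 3.8 kb. For Hdac1 the whole list had medians of 2.4 kb with an Hdac2 island and 1.6 kb without. The median ranks of those Hdac1 islands were 29.0% and 63.7%.

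**Figure D4:**
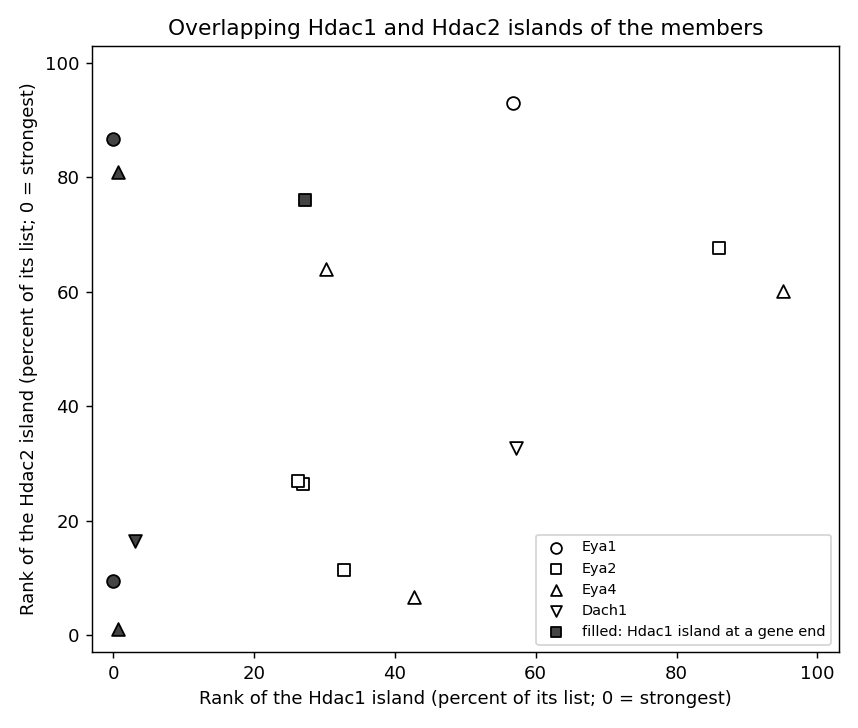
Each mark is 1 overlapping pair of islands, placed by the rank of the Hdac1 island (x axis) and of the Hdac2 island (y axis) in percent of their lists, 0 being the strongest. Filled marks are Hdac1 islands at a gene end, and the strongest of these, at Eya1 and Eya4, each overlap 1 strong and 1 weak Hdac2 island.

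Away from the gene ends, the Hdac2 island ranked higher in its list than the Hdac1 island in its own in 6 of 9 overlapping pairs, and lower in 3. In the pairs whose Hdac1 island lay at a gene end, the Hdac2 island ranked lower in 6 of 6. Eya1 and Eya4 each gave 2 of these pairs, and in each gene 1 of the 2 Hdac2 islands lay in the body. The Hdac1 islands of Eya1 and Eya4 stood at 0.00331% and 0.6% of their list. No Hdac2 island could rank higher than the first, and few could rank higher than the second. The outcome of these pairs was therefore fixed or nearly fixed in advance. Over all genes with an end island, the median rank of the strongest was 20.9% for Hdac1 and 50.2% for Hdac2. A lower Hdac2 rank at ends is therefore not particular to the members. The shares of such pairs over the whole lists were not computed, so 6 of 9 cannot be read as a trait of the members. Of those 6, the pair in the flank of Eya2 was nearly level, at 26.9% for Hdac1 and 26.4% for Hdac2. The pair outside Eya4 stood at 42.7% of the Hdac1 list and 6.74% of the Hdac2 list. The pair in the middle of Eya2 stood at 32.7% and 11.3%. In the Dach1 body the ranks were 57.2% and 32.7%. The 3 pairs in the other direction were in the flank of Eya1 (56.8% for Hdac1 and 93.1% for Hdac2), in the body of Eya4 (30.2% and 64.0%) and in the body of Eya2 (26.2% and 27.0%). Ranks in lists of different length describe each list and do not measure which protein was bound more.

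Genes with the most similar end islands were looked for among 6724 other genes with islands of both libraries, by distance over the log10 widths and the ranks of both islands. For Eya1 they were Txnip, Tubb5 and Gm46294, at distances of 0.132 to 0.158, with Hdac1 islands of 10.2 to 10.8 kb and Hdac2 islands at 83.5 to 89.9% of the list. Those of Eya4 were Tsc22d1, Arid1a and Keap1 (0.0472 to 0.0702), and those of Dach1 were Plxnc1, Spen and Syde2 (0.0432 to 0.0507). For Eya2 they were Rwdd4a and Trappc11, with the same island values, and Msl3l2 (0.0688 to 0.0748). The distances for Eya1 were the largest. They take in only its Hdac2 island at the gene end, and not the stronger one inside the gene under the same Hdac1 island. Few genes have so wide an Hdac1 end island, the 99th percentile being 9.6 kb against 13.8 kb at Eya1. Whether the larger distances go beyond that was not tested.

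Among 20 other genes of the network, Hdac1 islands were at an end of all 20 and Hdac2 islands at an end of 15. Over all protein-coding genes the shares were 60.7% and 31.7%, and 30.7% had both. The 20 genes were chosen with earlier results of these data known, so the counts describe this list only. The DNA-binding partners Six2, Six4 and Six5 had both, while Six3 and Six6, which act in the eye and forebrain, had Hdac1 alone. Six2, which keeps nephron progenitors undifferentiated, had islands of 17.4 kb (Hdac1) and 18.2 kb (Hdac2), so Hdac2 was broad there, unlike at Eya1. In the Dach and Ski family, Ski had 9.4 kb and 6.2 kb and Skil 6.8 kb and 2.4 kb. Dach2, the X-linked relative of Dach1, had an Hdac1 island of 1.4 kb (6.97e-17) and none of Hdac2 at an end, although 6 Hdac2 islands lay within 100 kb of it.

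Of the 9 kidney regulators, 7 had both, with Hdac1 islands of 8.0 to 64.0 kb and a median of 16.4 kb. Pax2 (15.2 kb) and Pax8 (0.8 kb) had Hdac1 alone at their ends. Hoxa11, Hoxc11 and Hoxd11 lie on islands shared with other Hox genes. The corepressor genes Sin3a, Ncor1 and Hdac3 all had both, with Hdac1 islands of 3.6 to 6.4 kb. Over the 20 genes the median end island was 7.4 kb for Hdac1 and 4.6 kb for Hdac2. The members, at 4.8 kb and 2.8 kb, lay between these and the median of 2.4 kb over all genes.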

How the data were processed

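Hdac1 and Hdac2 ChIP-seq islands were analysed from 2 deposited lists, 1 library per antibody. Per the labels' protocols, libraries started from 500 pg of DNA, with 12 amplification cycles plus 1 to 3 further cycles. SICER, mm10, BWA 0.7.5a, SAMtools 1.3.1, FastQC and bedtools 2.17 are named, per the submitters' processing notes, and the deposited island names carry the word sicer. SICER joins enriched windows into broad islands with coarse edges. Not given in the sources used here are its settings, the background library, the depth and any pooling. Each deposited island carries a p-value or q-value. Widths came in steps of 200 bp, and neighbouring islands of a list were at least 800 bp apart. Positions are given 1-based.

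Gene spans came from RefSeq GRCm38.p6, for protein-coding genes of the autosomes 1 to 19 and the sex chromosomes. That table has no exons, so islands were not divided into exon and intron. Islands were counted within 1 kb of either gene end, in the gene body and within 100 kb. Of several islands at the ends of a gene the strongest was used. Overlap meant at least 1 bp. The members, the gene lists, the motifs and the rules were chosen with earlier results of these data known. Named genes are the 5 members, the 20 network genes, genes at whose ends or in whose span a member island lies, and the 3 genes most like each member. Another gene of the network list is not reported here. Intervals are 95% Wilson intervals. Recovery of 200 planted genes and overlap counts against bedtools 2.31.1 were tested on simulated data. The work used scipy 1.17.1, matplotlib 3.10.9, pandas 2.3.3 and numpy 2.4.6 under Python 3.11.15. Alternatives were the upper 50% of each list, merged islands, other windows and stricter overlap.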

Additional observations from a re-analysis of the deposited data

How the results depend on the processing

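Of 37 values recomputed with other settings, 26 stayed within 1.5 times the reported value and 11 did not. The Hdac1 counts of members, 5 at an end, 5 in the body and 5 within 100 kb, were the same with the upper 50% of each list, with merged islands, with 500 bp or 5 kb at the ends and within 50 or 200 kb. With annotated starts only they were 3 for Hdac1 and 2 for Hdac2, because 3 members have a start in the table. With the upper 50% of each list, Hdac2 islands at ends were left at 2 members, Eya4 and Dach1, since those of Eya1 and Eya2 lie in the weaker part of the list. The same list kept 13 of 34 Hdac1 islands, 7 overlapping Hdac2, and 11 of 22 Hdac2 islands, 7 overlapping Hdac1. It reduced the body bases under Hdac1 to 8.97 kb in Eya2 and 3.56 kb in Dach1, and those under Hdac2 to 2.6 kb in Eya1, 3.0 kb in Eya2 and 5.44 kb in Eya4. Overlap with both edges within 400 bp held for 2 Hdac1 islands. Eya3 had an Hdac2 island within 200 kb. No paired analysis was possible because there was 1 library per antibody. The background library behind the lists and the unknown depth limit what a missing island means.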
